A study of Homo sapiens with 6 samples.

Results

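Genes of the extracellular matrix and of its cell surface receptors were examined in RNA-seq counts of LNCaP cells with and without a knockout of PACT, the protein that *PRKRA* encodes. The group held the protein-coding collagen chains (COL, number, A, number), the numbered laminin chains (LAMA, LAMB, LAMC), thrombospondins (THBS) and integrin chains (ITGA, ITGB), together with *FN1*, *PXDN*, *NID1*, *NID2*, *HSPG2*, *AGRN*, *SPARC*, *DDR1* and *DDR2*. Genes were taken by symbol, with earlier results of these data known, and 88 of the 29806 genes in the counts belonged to the group. *PXDN*, which was added by name, had already been reported by the study as upregulated in PACT KO from these data. These were 44 collagen chains, 12 laminin chains, 4 nidogens and heparan sulfate proteoglycans, 7 thrombospondins and other glycoproteins, 11 integrin alpha chains, 8 integrin beta chains and 2 discoidin domain receptors.

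LNCaP is a human, androgen-responsive prostate cancer line with a luminal epithelial character. The 3 LNCaP parental libraries came from unedited cells, and the 3 PACT KO libraries from a single clone of the same line in which *PRKRA* had been targeted with CRISPR/Cas9. Both were grown in RPMI-1640 with 10% FBS, and RNA was taken 48 h after plating at about 80% confluency. The controls were parental cells rather than a clone that had passed through transfection and single cell growth, and 1 clone cannot be told apart from the knockout, so p-values here measure only the spread between dishes.

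The extracellular matrix is a secreted meshwork whose sheet-like form, the basement membrane, lies under epithelia and is built from laminin trimers, a collagen IV network, nidogens and the proteoglycans perlecan and agrin. Fibrillar collagens such as I, III and V belong to the connective tissue between cells, and collagen VI forms beaded filaments near the basement membrane. Cells hold on to this material through integrins, heterodimers of 1 alpha and 1 beta chain, and through discoidin domain receptors, which are tyrosine kinases activated by collagen.

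The reads counted on genes ranged from 19930060 to 24940838 per library. In a single library 3 counts corresponded to 0.121 to 0.148 CPM (counts scaled to a common library total by edgeR's TMM method), and this floor covers counting error only. The targeted gene, *PRKRA* (number 8575), was lower but still read in PACT KO, with 882, 809 and 866 counts in the parental dishes against 291, 331 and 243 counts in the knockout dishes. All 10 luminal epithelial markers examined were detected, with a summed level of 5340 to 5351 CPM in parental and 5524 to 5626 CPM in knockout libraries. Of 5 basal markers, 2 exceeded 3 counts in some library and *KRT5* was at 0 in all, with sums of 0.132 to 0.509 against 0.198 to 0.247 CPM. Of 10 fibroblast and smooth muscle markers, 6 exceeded 3 counts in some library, and *FAP* was at 0 in all. Their summed level was 14.6 to 18.1 CPM in parental and 36.5 to 37.5 CPM in knockout libraries, and most of that difference was *VIM* (6.40 against 25.3 CPM). Of 6 endothelial markers only *VWF* exceeded 3 counts, with sums of 24.4 to 27.0 against 15.6 to 17.8 CPM, while *PECAM1* and *CDH5* were at 0 throughout. Of 5 leukocyte markers only *CD68* did so, with sums of 2.17 to 2.34 against 1.5 to 1.78 CPM. The part of these marker differences in the results below was not tested. In such bulk RNA, fewer cells of a type and less RNA per cell cannot be told apart.

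The DNA before the start of 4 of these genes is shown because they carry the largest changes of the group or a contrast in level between close neighbours. *THBS1* (thrombospondin-1) had the largest fall and *PXDN* (peroxidasin) the largest rise. *COL4A5* and *COL4A6* are transcribed in opposite directions from starts 380 bp apart, so that their windows overlap. Each run gives the 250 bases before a single RefSeq start taken for the gene on GRCh38.p14, 5′ to 3′ along the gene's own strand. For *PXDN* the start taken (1744515) lies inside the gene's bounds, which reach 1744901, so that its window does too. Capitals mark the GC box GGGCGG, the TATA box TATAAA and the CCAAT box, each on either strand. The windows lie at chr15:39580829-39581078 (plus strand) for *THBS1*, chr2:1744516-1744765 (minus) for *PXDN*, chrX:108439588-108439837 (plus) for *COL4A5* and chrX:108439459-108439708 (minus) for *COL4A6*.
THBS1: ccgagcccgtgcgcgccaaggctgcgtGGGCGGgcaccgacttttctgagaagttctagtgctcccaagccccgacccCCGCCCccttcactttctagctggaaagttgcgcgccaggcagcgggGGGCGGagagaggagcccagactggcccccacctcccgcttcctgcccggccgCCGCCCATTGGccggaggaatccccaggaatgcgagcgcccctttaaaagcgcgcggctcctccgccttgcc
PXDN: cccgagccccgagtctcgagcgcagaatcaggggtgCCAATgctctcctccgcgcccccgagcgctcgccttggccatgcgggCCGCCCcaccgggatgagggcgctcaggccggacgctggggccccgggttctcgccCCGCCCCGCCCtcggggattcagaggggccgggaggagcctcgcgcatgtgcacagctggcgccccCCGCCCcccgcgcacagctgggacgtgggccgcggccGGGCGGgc
COL4A5: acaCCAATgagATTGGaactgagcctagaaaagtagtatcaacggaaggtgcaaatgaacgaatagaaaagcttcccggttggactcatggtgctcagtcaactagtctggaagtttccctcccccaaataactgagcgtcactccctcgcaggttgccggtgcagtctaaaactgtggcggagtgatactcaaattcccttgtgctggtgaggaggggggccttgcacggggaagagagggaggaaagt
COL4A6: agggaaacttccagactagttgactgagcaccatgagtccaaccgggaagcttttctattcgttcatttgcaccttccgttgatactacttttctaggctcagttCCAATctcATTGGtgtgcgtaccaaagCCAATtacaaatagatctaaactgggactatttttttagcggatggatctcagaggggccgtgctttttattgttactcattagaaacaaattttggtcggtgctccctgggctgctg

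The *THBS1* window held 4 GC boxes, 1 CCAAT box and 24 CpG dinucleotides. The *PXDN* window held 5 GC boxes, of which 2 overlap, 1 CCAAT box and 32 CpG. The *COL4A5* window held 2 CCAAT boxes and 8 CpG, and the *COL4A6* window 3 CCAAT boxes and 7 CpG, with no GC box in either. Both boxes of *COL4A5* lie where the windows overlap and were therefore counted for both genes. A TATAAA was absent from all 4 windows. RefSeq windows were found for 66 of the 88 genes, and GGGCGG was in 38 of them (57.6%) against 56.0% of 15843 protein-coding windows of the same length. CCAAT was in 19 (28.8%) against 34.5%, and TATAAA in 8 (12.1%) against 9.23%. The AP-1 letters TGANTCA were in 1 window (1.52%) against 5.04%, and the TEAD letters GGAATG in 8 (12.1%) against 10.1%. The median number of CpG was 17 in windows of the 37 genes that were tested here, 12 in those of the 29 that were not, and 17 over all windows. A match of letters is a description and not evidence of a binding site.

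Many chains of the matrix were silent or nearly so in LNCaP cells. Of the 88 genes, 49 passed edgeR's filter on low counts and were tested among 14462 genes. Of the other 39 genes, 24 had at most 3 counts in every library, and 15 had more in some library, up to 19. There were 23 untested collagen chains, and 6 of the 88 genes had no read in any library, namely *COL10A1*, *COL1A2*, *COL22A1*, *COL4A1*, *COL6A5* and *COL8A1*. The 88 genes together took 0.265% to 0.271% of the counted reads of the parental libraries, and 0.303% to 0.312% of those of the PACT KO libraries. Their summed level was 2721 ± 22.2 CPM (SD, n = 3) in LNCaP parental and 3056 ± 42.0 CPM in PACT KO, a ratio of 1.12.

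Differences were called with edgeR's quasi-likelihood test with Benjamini-Hochberg adjustment (FDR) over all genes tested. DEGs are genes whose FDR lay under 0.01 and whose fold change (FC) was 1.5 or more in either direction. Upregulated DEGs numbered 6 (12.2% of the 49 tested), *COL27A1*, *COL4A4*, *COL5A1*, *ITGB2*, *ITGB7* and *PXDN*, where the share over all genes tested was 3.07%. Downregulated DEGs numbered 3 (6.12%), *COL26A1*, *DDR2* and *THBS1*, against 2.65% of all genes. Of these 9, all but *PXDN* had an LNCaP parental mean under 10 CPM. Without a limit on fold change, 18 of the 49 genes (36.7%) were higher in PACT KO at an FDR under 0.01, against 15.3% of all genes, and 5 (10.2%) were lower, against 18.8%. In 21 genes (42.9%) every PACT KO library lay above every LNCaP parental library, against 25.1% of all genes, and in 7 (14.3%) every one lay below, against 27.2%. The median log2 FC of the 49 genes was 0.09, against 0.00 over all genes. No set test was run on these shares, and passing the filter can itself depend on a difference between the groups, as for *THBS1*.

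In the plot of log2 FC against mean level, the well-covered matrix genes other than *PXDN* formed a narrow band. Among the 14 genes past an FDR of 0.01 that were not DEGs, 12 were higher and 2 lower, with absolute log2 FC of 0.09 to 0.56. A further 26 tested genes did not pass. By class, the summed level of collagens was 545 ± 13.5 CPM in LNCaP parental and 709 ± 48.4 CPM in PACT KO (a ratio of 1.3), and that of integrin beta chains 422 ± 5.87 and 515 ± 8.92 CPM (1.22). Most of each rise came from 1 abundant gene, *COL6A1* (205 to 297 CPM) among collagens and *ITGB1* (361 to 445 CPM) among integrin beta chains. Laminin chains summed to 848 ± 4.36 and 836 ± 4.39 CPM, a ratio of 0.986. Integrin alpha chains gave 109 ± 1.83 and 113 ± 1.05 CPM, a ratio of 1.04.

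**Figure D1:**
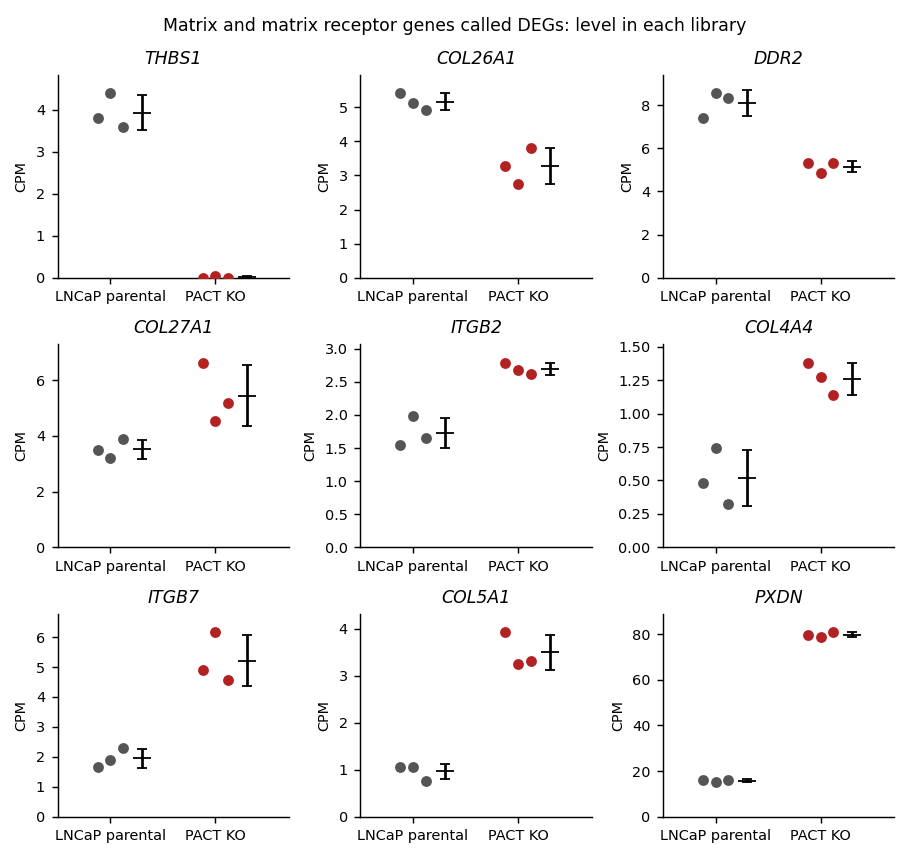
Level in CPM (y axis, from 0) of the 9 DEGs in each of the 3 LNCaP parental and 3 PACT KO libraries (points, in replicate order), with the mean and SD of each group beside them. In every panel the groups are separate, and *THBS1* sits at 0 to 0.0411 CPM in PACT KO.

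*PXDN* had the largest rise of the group. Peroxidasin is a secreted peroxidase that makes the sulfilimine cross-links of the collagen IV network. The gene, number 7837, lies on chromosome 2 from 1631887 to 1744901 (GRCh38.p14, minus strand). Its level was 16.0, 15.4 and 16.3 CPM in the LNCaP parental libraries and 79.5, 78.9 and 80.9 CPM in the PACT KO libraries, as the panels of DEGs show. The groups lay far apart and the dishes of each were close together, with a fold of 5.01 (FDR = 4.90e-32 in edgeR). Per kb of exon, *PXDN* changed from 2.33 to 11.7 CPM, and the ratio of *FN1* to *PXDN* on this scale from 16.1 to 2.97.

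*THBS1* was all but lost. Thrombospondin-1 is a secreted glycoprotein that binds matrix proteins and the receptors CD36 and CD47. The gene, number 7057, lies on chromosome 15 from 39581079 to 39599466 (plus strand). It had 86, 95 and 89 reads in the LNCaP parental libraries (3.92 ± 0.417 CPM) and 0, 1 and 0 reads in the PACT KO libraries. The ratio of LNCaP parental to PACT KO level was 271, with a 95% counting interval of 48.2 to 10727 (FDR = 3.41e-18 in edgeR). *FSIP1*, which overlaps it on the other strand, had 2.60 CPM in LNCaP parental and 2.10 CPM in PACT KO (FDR = 0.135). No source used here states whether counting used strand, so that reads of overlapping genes cannot be told apart. Among the other thrombospondins, *THBS3* was higher (32.3 ± 1.74 to 38.1 ± 3.39 CPM, log2 FC 0.23, FDR = 6.84e-04), but did not pass without LNCaP parental replicate 1 (FDR = 0.0169) or without PACT KO replicate 3 (FDR = 0.0163). *THBS4* had 4.05 and 3.88 CPM (FDR = 0.732), and *THBS2* had at most 3 reads in a library. Fibronectin (*FN1*), which cells bind through integrins, was among the most abundant genes of the group and was slightly lower, at 338, 342 and 345 CPM in LNCaP parental and 311, 324 and 315 CPM in PACT KO. Its log2 FC was -0.11 (SE 0.03, FDR = 8.86e-04), and it was past the threshold neither with library totals alone (FDR = 0.0105) nor without LNCaP parental replicate 3 (FDR = 0.0116). *ATIC*, which overlaps *FN1*, had a log2 FC of -0.21. *SPARC*, a collagen-binding glycoprotein, had at most 2 reads in any library.

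The largest fold changes among the collagens tested were those of weakly expressed chains, while the largest rise in CPM was that of the abundant *COL6A1* (205 to 297 CPM). Of the 21 collagen chains tested, 8 (38.1%) were higher and 1 (4.76%) lower at an FDR under 0.01, against 15.3% and 18.8% of all genes, with a median log2 FC of 0.19. *COL5A1*, which encodes the alpha-1 chain of the fibril-nucleating collagen V (number 1289, chromosome 9 from 134641803 to 134844843), had 24, 23 and 19 reads in LNCaP parental and 97, 79 and 67 in PACT KO. Its level was 0.963 ± 0.169 and 3.50 ± 0.374 CPM, a log2 FC of 1.87 (SE 0.18, FDR = 8.73e-11). Its partner chain *COL5A2* was more abundant and was higher by less, at 52.8, 57.9 and 57.7 CPM against 67.1, 61.6 and 65.8 CPM (log2 FC 0.21, FDR = 8.47e-05). Per kb of exon *COL5A2* stood 70.4 times above *COL5A1* in LNCaP parental and 22.4 times in PACT KO. The remaining chain, *COL5A3*, had at most 1 read in any library.

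Collagen IV, the network collagen of basement membranes, was represented mainly by the alpha-5 chain. *COL4A5* had 116, 119 and 115 CPM in LNCaP parental and 138, 133 and 136 CPM in PACT KO, so that the groups were separate (log2 FC 0.22, SE 0.03, FDR = 2.27e-07). *COL4A6*, which starts 380 bp away on the other strand, was at 2.05 ± 0.367 and 2.46 ± 0.465 CPM (log2 FC 0.27, SE 0.17, FDR = 0.216). Per kb of exon, *COL4A5* was 50.1 times as abundant as *COL4A6* in LNCaP parental and 48.4 times in PACT KO. The windows of both genes, printed above, share a pair of CCAAT boxes. The chain of the *COL4A4* gene (number 1286, chromosome 2 from 226967360 to 227164488, minus strand) assembles with the alpha-3 and alpha-5 chains. *COL4A4* had 11, 16 and 8 reads in LNCaP parental and 34, 31 and 23 in PACT KO, a log2 FC of 1.31 (SE 0.31, FDR = 5.58e-04). Its divergent neighbour *COL4A3*, whose start is 419 bp away, had 0.710 ± 0.297 and 0.828 ± 0.296 CPM (FDR = 0.685). The overlapping gene *RHBDD1* had a far higher level and a log2 FC of -0.14. The classical pair was almost absent, since *COL4A1* had no read and *COL4A2* 1.97 and 1.99 CPM (FDR = 0.975).

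**Figure D2:**
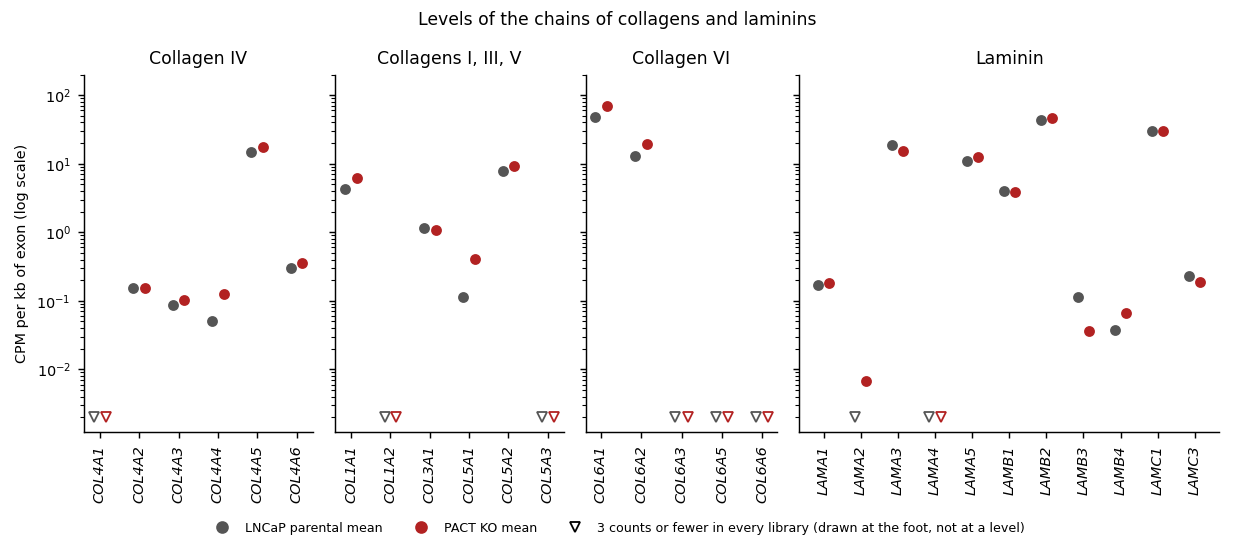
Mean level in CPM per kb of exon (y axis, log scale) of chains of collagens IV, I, III, V and VI and of laminins in LNCaP parental and PACT KO; open triangles at the foot mark chains with at most 3 counts in every library of the group. Some chains of a trimer stand far above others, as *COL6A1* and *COL6A2* do above *COL6A3*, and the groups differ far less than the chains do.

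The plot of chain levels shows which trimer partners were measured together. Collagen VI is assembled from an alpha-1, an alpha-2 and 1 further chain. *COL6A1* and *COL6A2*, which neighbour each other on chromosome 21 with 93064 bp between them, were both higher in PACT KO. *COL6A1* had 196, 209 and 210 CPM in LNCaP parental and 309, 271 and 312 CPM in PACT KO (log2 FC 0.54, SE 0.04, FDR = 3.05e-15). *COL6A2* had 55.9, 55.9 and 58.8 CPM against 88.7, 74.9 and 88.4 CPM (log2 FC 0.56, SE 0.05, FDR = 6.33e-13). The ratio of their levels per kb of exon was 3.74 in LNCaP parental and 3.67 in PACT KO, and in both genes PACT KO replicate 2 was the lowest of its group. Without that library both passed the 1.5-fold limit, with log2 FC of 0.60 and 0.64. The further chains *COL6A3*, *COL6A5* and *COL6A6* had at most 3 reads in any library.

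A like imbalance was seen in collagen I. *COL1A1* had 27.4, 30.1 and 29.6 CPM in LNCaP parental and 43.1, 38.5 and 43.4 CPM in PACT KO (log2 FC 0.52, SE 0.05, FDR = 1.98e-10), whereas *COL1A2*, its usual partner, had no read in any library. *COL3A1* was at 6.35 ± 0.856 and 5.96 ± 0.373 CPM (FDR = 0.528).

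Of the remaining collagens, *COL27A1* (a fibrillar collagen, number 85301, chromosome 9 from 114154098 to 114312511) had 79, 69 and 96 reads in LNCaP parental and 164, 110 and 105 in PACT KO. Its log2 FC was 0.63 (SE 0.13, FDR = 1.90e-04), but 1 PACT KO dish was well above the others. Without PACT KO replicate 1 it was 0.46 (FDR = 0.0141), and without LNCaP parental replicate 2 it was 0.57, so that *COL27A1* was then no DEG. *COL26A1* (number 136227, chromosome 7 from 101362388 to 101559024) had 123, 111 and 122 reads against 81, 67 and 77, a log2 FC of -0.66 (SE 0.13, FDR = 6.01e-05). Without PACT KO replicate 2 its log2 FC was -0.55, under the fold limit. *COL7A1*, the anchoring fibril collagen, had 8.76, 9.71 and 9.41 CPM in LNCaP parental, and in PACT KO 8.70, 4.32 and 8.46 CPM (FDR = 0.0216), with 1 dish far below the others. Without PACT KO replicate 2, the low dish, its log2 FC was -0.11 (FDR = 0.412), and in DESeq2 the FDR was 0.371. It passed only in some settings that kept this dish, such as without PACT KO replicate 1 (log2 FC -0.57, FDR = 2.32e-04) or replicate 3 (-0.51, FDR = 0.00249). *COL18A1*, whose product yields endostatin, was at 24.2 ± 0.750 and 24.7 ± 2.84 CPM (FDR = 0.757), and *COL9A2* at 11.4 ± 0.194 and 12.8 ± 2.10 CPM (FDR = 0.175). *COL12A1* was too low for the test in the main analysis, with 6, 10 and 8 reads in LNCaP parental and 1, 0 and 0 in PACT KO. The ratio of LNCaP parental to PACT KO was 24.1 (95% counting interval 3.92 to 989).

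Laminin chains were abundant and changed little, and none was a DEG, as the plot of log2 FC by class shows. *LAMB2*, *LAMC1*, *LAMA3* and *LAMA5* led the class. *LAMA3*, the alpha chain of laminin-332, was lower in PACT KO, at 207, 206 and 211 CPM in LNCaP parental and 169, 163 and 169 CPM in PACT KO (log2 FC -0.32, SE 0.03, FDR = 7.13e-12). *LAMA5*, the alpha chain of laminin-511 and laminin-521, was higher, at 122, 123 and 129 CPM against 155, 136 and 140 CPM (log2 FC 0.20, SE 0.04, FDR = 1.37e-05). These alpha chains moved in opposite directions with separate groups in both, and the ratio of *LAMA3* to *LAMA5* per kb of exon was 1.72 in LNCaP parental and 1.20 in PACT KO.

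The chains that join them differed less. *LAMB2* was at 247 ± 4.66 and 264 ± 6.04 CPM (log2 FC 0.09, FDR = 0.00506), and this call did not hold when single libraries were left out. The FDR of *LAMB2* was 0.0142, 0.0103 and 0.0405 without LNCaP parental replicates 1, 2 and 3, and 0.0223 and 0.0126 without PACT KO replicates 2 and 3. *LAMC1*, the common gamma chain, was at 239 ± 0.833 and 234 ± 5.01 CPM (FDR = 0.314), and *LAMB1* at 24.9 ± 2.01 and 24.0 ± 1.33 CPM (FDR = 0.601). *LAMB3*, which joins *LAMA3* in laminin-332, was scarce, with 19, 7 and 9 reads in LNCaP parental and 5, 2 and 4 in PACT KO. *LAMA1* and *LAMC3* were under 2 CPM in every library and did not pass the test.

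Among the proteins that link laminin to collagen IV, the proteoglycan agrin (*AGRN*) was higher in PACT KO, with 115, 115 and 117 CPM in LNCaP parental and 152, 146 and 146 CPM in PACT KO. Its log2 FC was 0.36 (SE 0.03, FDR = 1.59e-12). Perlecan (*HSPG2*) was at 34.2 ± 2.65 and 36.7 ± 0.561 CPM (FDR = 0.131), and nidogens were at the limit of detection, with at most 4 reads of *NID1* and 2 of *NID2* in a library.

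Of the 5 integrin beta chains tested, 4 were higher in PACT KO at an FDR under 0.01, where 15.3% of all genes were. *ITGB1*, the chain shared by most matrix-binding integrins, had 356, 361 and 365 CPM in LNCaP parental and 449, 450 and 436 CPM in PACT KO (log2 FC 0.30, SE 0.03, FDR = 2.63e-12). It was the most abundant integrin chain, at 91.8 CPM per kb of exon in LNCaP parental and 113 in PACT KO, and stood 8.52 and 10.2 times above *ITGB5*. *ITGB4*, the partner of *ITGA6* in hemidesmosomes, had 9.42, 9.71 and 9.93 CPM against 13.3, 13.0 and 12.9 CPM (log2 FC 0.43, SE 0.09, FDR = 8.42e-05). *GALK1*, which overlaps *ITGB4*, moved the other way (log2 FC -0.42). *ITGB5* was at 47.1 ± 1.13 and 48.6 ± 1.53 CPM (FDR = 0.370).

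The remaining beta chains are known from leukocytes and were low here. *ITGB7* (number 3695, chromosome 12 from 53191323 to 53207251, minus strand) had 38, 41 and 57 reads in LNCaP parental and 121, 150 and 92 in PACT KO. Its log2 FC was 1.41 (SE 0.15, FDR = 5.23e-10), while *ZNF740*, which overlaps it on the other strand, had a log2 FC of 0.03. Of the alpha chains that pair with *ITGB7*, *ITGA4* had at most 1 read in a library and *ITGAE* 29.4 ± 0.448 and 28.4 ± 1.16 CPM (FDR = 0.492). *ITGB2* (number 3689, chromosome 21 from 44885953 to 44928815) had 35, 43 and 41 reads against 69, 65 and 53, a log2 FC of 0.65 (SE 0.17, FDR = 0.00170). The call of *ITGB2* was lost without LNCaP parental replicate 1 (log2 FC 0.57, FDR = 0.0123), without PACT KO replicate 1 (FDR = 0.0164) and in DESeq2 (FDR = 0.0255). Its alpha partners *ITGAL*, *ITGAM*, *ITGAX* and *ITGAD* had at most 3 reads in a library. Of the leukocyte markers, *CD3E* was at 0 in all libraries, and the summed level was nearly all *CD68*. *CD68* had 2.12 CPM in LNCaP parental and 1.58 CPM in PACT KO (FDR = 0.0512 in edgeR). The part of leukocytes in the levels of *ITGB7* and *ITGB2* was not tested.

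Integrin alpha chains differed less. Of the 7 numbered chains tested, *ITGA3*, a laminin receptor chain, was higher at 15.5, 14.8 and 16.4 CPM against 20.3, 18.7 and 19.0 CPM (log2 FC 0.31, SE 0.08, FDR = 8.16e-04; without LNCaP parental replicate 2, FDR = 0.0101). The fibronectin receptor chain *ITGA5* was at 34.8 ± 0.211 and 38.6 ± 1.74 CPM (FDR = 0.0117), with every PACT KO library above, but passed the threshold only in some settings, namely without PACT KO replicate 1 (FDR = 0.00503), with library totals alone (0.00308), with upper quartile factors (0.00348) and with a filter of 1 CPM (0.00884). *ITGA6* was at 34.2 ± 0.699 and 32.2 ± 0.562 CPM (FDR = 0.176) and *ITGA2*, a collagen receptor chain, at 20.5 ± 2.18 and 18.8 ± 0.427 CPM (FDR = 0.183). *ITGA1*, *ITGA7* and *ITGA10* were low and did not pass. Among the 7 alpha chains named with a letter, *ITGAV*, which binds fibronectin and vitronectin, was higher at 97.5 ± 4.28 and 109 ± 1.22 CPM (log2 FC 0.16, FDR = 1.16e-04), and *ITGA2B* was at 1.87 and 1.24 CPM (FDR = 0.0162).

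The discoidin domain receptors differed from each other. *DDR2*, which prefers fibrillar collagen (number 4921, chromosome 1 from 162630863 to 162787405), was downregulated. Its level was 7.40, 8.56 and 8.32 CPM in LNCaP parental and 5.30, 4.85 and 5.29 CPM in PACT KO (log2 FC -0.65, SE 0.11, FDR = 3.26e-06). *DDR1*, typical of epithelia, was far more abundant, at 45.3 CPM per kb of exon in LNCaP parental against 0.791 for *DDR2*. It had 242 ± 7.75 and 255 ± 3.43 CPM (log2 FC 0.08, FDR = 0.0183).

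Genes that act on the matrix or beside its receptors were read from further lists. Of 30 genes of collagen processing and cross-linking, 23 were tested, 5 (21.7%) were higher and 6 (26.1%) lower at an FDR under 0.01, against 15.3% and 18.8% of all genes, and the median log2 FC was -0.06. *TLL1*, a protease that trims procollagen, had 7.93, 8.05 and 7.39 CPM in LNCaP parental and 1.82, 1.07 and 1.68 CPM in PACT KO (log2 FC -2.35, SE 0.14, FDR = 2.15e-16). Its relative *BMP1* was higher (log2 FC 0.26), as were the prolyl isomerase *PPIB* (0.28) and the procollagen exporter *MIA3* (0.25), and the collagen galactosyltransferase *COLGALT1* was lower (-0.26). The other DEG, named after its values were seen, was the collagen chaperone *SERPINH1*, with 10, 20 and 15 reads against 3, 2 and 2. Of 23 other matrix receptors, 16 were tested, 7 (43.8%) were higher and 3 (18.8%) lower, against the same 15.3% and 18.8%. The syndecan *SDC1* fell from 61.7 ± 0.207 to 36.4 ± 2.72 CPM (log2 FC -0.76, FDR = 4.88e-17) and *SDC4* rose (log2 FC 0.37). *MCAM*, which binds laminin alpha-4, rose from 0.588 to 2.38 CPM (log2 FC 2.02), and *HMMR*, a hyaluronan receptor, fell (-0.63).

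The nearest tested genes on either side of the 9 DEGs were examined as well, leaving out genes that overlap a DEG. Gaps ranged from 0.136 kb (*COL4A3* from *COL4A4*) to 1925 kb (*DOCK10* from *COL4A4*), so that some of these genes were far away. Of the 36 genes so taken, 2 (5.56%) were DEGs, a share near the 5.72% over all genes tested. They were *UAP1*, 29.6 kb from *DDR2*, which was lower too (log2 FC -0.61), and *RASGRP1*, 1016 kb from *THBS1*, which was higher (0.79). The median log2 FC of the 36 was 0.02, with a range of -1.15 to 0.91. Among the 64 matrix and receptor genes with more than 3 counts in some library, 16 overlapped another counted gene.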

How the data were processed

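RNA from 3 dishes of LNCaP parental and 3 of PACT KO cells was sequenced, and the authors deposited raw read counts per NCBI Gene number, without normalization. The submitters' processing notes list bcl2fastq 2.20.0.422, STAR 2.5.3a, StringTie 1.3.3, featureCounts 1.5.3 and hg38, with no order; strand setting and annotation are not given in the sources used here. All 6 columns were assigned to samples by their names. A row without a gene number (0.0688% to 0.0708% of counts) was left out. Symbols, positions and promoter windows came from RefSeq (GRCh38.p14), and 27540 of 29806 numbers (92.4%) had a symbol. Exon lengths came from GENCODE release 29.

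Counts were filtered with filterByExpr, scaled by TMM and compared with the quasi-likelihood test of edgeR 4.0.16 (R 4.3.3), 2-sided, with Benjamini-Hochberg adjustment over 14462 genes (common dispersion 8.41e-04). The thresholds for DEGs were those of the study (FDR under 0.01, 1.5-fold or more in either direction). CPM are given with the SD over 3 dishes. SE is the absolute log2 fold change over the square root of F. Ratios against 1 to 3 reads carry an exact 95% counting interval. An exact permutation test of 3 dishes against 3 cannot give a p under 0.10.

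Named were all DEGs, up to 8 genes per class by level, and up to 5 genes per further list by smallest p. Genes at or near 0, and overlapping or neighbouring genes, were named beside these after their values were seen. A few genes of these lists are not reported here. The genes and lists were chosen with earlier results of these data known. Tests were checked on simulated counts. Replicate numbers did not pair the samples: deviations of same-numbered samples correlated at -0.11, 0.01 and -0.08. Alternatives were other scalings, filters and tests (DESeq2 1.42.0, limma 3.58.1), the replicate block and each library left out.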

Additional observations from a re-analysis of the deposited data

How the results depend on the processing

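Across 16 alternatives, 27 matrix and receptor genes gave 432 values. By the call as a DEG, 417 kept direction and call, 11 lost and 4 gained the call, and 0 reversed. Only 9 of the 27 were DEGs in the main analysis, so for the others a kept call meant staying uncalled. The 11 losses fell on the DEGs *COL4A4*, *COL26A1*, *COL27A1*, *DDR2* and *ITGB2*, and the 4 gains on *COL6A1* and *COL6A2*. By an FDR under 0.01 alone, over the 15 alternatives other than glmTreat, the 23 genes past it kept that call in 331 of 345 values. The 14 losses fell on *COL27A1*, *FN1*, *ITGA3*, *ITGB2*, *LAMB2* and *THBS3*, and *COL16A1*, *COL7A1*, *DDR1* and *ITGA5* gained the call in 12 values. With the 1.5-fold limit built into the test (glmTreat), edgeR called 114 genes higher and 151 lower over all genes, against 444 and 383, and 3 and 1 of the matrix and receptor genes, against 6 and 3. It lost *COL4A4*, *COL26A1*, *ITGB2*, *DDR2* and *COL27A1*. A filter of at least 1 count gave 5 downregulated DEGs and 8 genes lower at an FDR under 0.01, against 3 and 5, and the added DEGs were *COL12A1* (log2 FC -4.15, FDR = 1.98e-04) and *LAMB3* (-1.64, FDR = 0.00978). With library totals alone *COL6A2* became a DEG (0.59), as it did without LNCaP parental replicate 3 (0.59).

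With each library left out in turn, matrix and receptor DEGs numbered 4 to 8 higher and 2 to 3 lower, those past an FDR of 0.01 15 to 18 higher and 4 to 6 lower, and DEGs over all genes 393 to 450 higher and 357 to 392 lower. With the replicate number as a block, which the labels tie to no shared culture or day, matrix and receptor DEGs were 6 higher and 3 lower, and DEGs over all genes 426 and 374. Other scalings moved the median log2 FC of all genes by at most 0.03. At about 1 CPM and below, the SE of a log2 FC reached 0.35 (*COL24A1*), so that a 1.5-fold change could go undetected at this depth.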

Other observations

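Further matrix genes lie outside the families described above. Of 44 other matrix proteins and proteoglycans, 19 were tested, 9 (47.4%) were higher and 1 (5.26%) lower at an FDR under 0.01 in edgeR, where 15.3% of all genes tested were higher and 18.8% lower, with a median log2 FC of 0.25. The basement membrane protein *FBLN2* rose from 10.7 ± 0.62 to 16.9 ± 1.32 CPM (log2 FC 0.66, SE 0.09), and *LTBP1*, which binds latent TGF-beta, from 5.27 ± 0.187 to 9.05 ± 1.41 CPM (0.78, SE 0.11). *CCN3* (1.24 to 3.14 CPM), *SMOC2* (4.89 to 7.80 CPM) and *EFEMP2* (2.02 to 3.66 CPM) rose as well. The one fall was *MATN2*, with 11, 14 and 28 reads in LNCaP parental and 4, 1 and 1 in PACT KO, a gene named after its values were seen.

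Of 38 matrix proteases and their inhibitors, 20 were tested, 7 (35.0%) were higher and 1 (5.00%) lower, against 15.3% and 18.8% of all genes, with a median log2 FC of 0.15. *ADAMTS1*, which cleaves proteoglycans, was at 331, 340 and 330 CPM in LNCaP parental and 425, 422 and 419 CPM in PACT KO (log2 FC 0.34, SE 0.03, FDR = 1.00e-13). The inhibitors *TIMP2* (log2 FC 0.38) and *SERPINE2* (0.74) were higher too. Of 39 genes of the integrin adhesome, the proteins that join integrins to actin and to kinases, 35 were tested, 11 (31.4%) were higher and 8 (22.9%) lower, against the same shares of all genes, with a median of 0.01. *EFS* had 118, 112 and 110 reads against 1, 0 and 1. The integrin activator *FERMT1* fell from 7.71 ± 0.053 to 3.50 ± 0.193 CPM (log2 FC -1.14) and *PARVA* from 29.4 to 19.3 CPM (-0.61). These named adhesome genes were all lower, but the list held 3 upregulated DEGs beside 3 downregulated ones. Its log2 FC ranged from -7.17 to 1.66.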
